A study of Mus musculus with 17 samples.

Results

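The genes of ATF4 stress and serine synthesis are described here across 17 RNA-seq libraries of mouse bone marrow macrophages (BMMs) and osteoclast precursors (preOCs). The 10 members, Atf4, Ddit3, Trib3, Chac1, Asns, Phgdh, Psat1, Shmt2, Sesn2 and Ddit4, were chosen by symbol, and each symbol matched 1 of the 41388 Ensembl genes in the tables. All 10 passed the filter on low counts in every comparison. The libraries come from Bap1flox mice, which carry loxP sites in both copies of Bap1 and no Cre, and from Bap1LysM mice, which carry the same sites and, by the study's methods, 1 copy of LysM-Cre. BAP1 is a deubiquitinase of histone H2A, and LysM-Cre sits in the lysozyme gene Lyz2, so deletion is limited to myeloid cells and depends on Lyz2 being active. BMMs were grown from marrow with M-CSF and received no RANKL, with 3 libraries of each genotype and no age given. The preOCs received M-CSF with 100 ng/ml RANKL for 24 h and came from 20-week-old male mice (the labels call them OC), with 6 Bap1flox libraries and 5 Bap1LysM libraries. The strain background is not given in the sources used here. The preOC libraries of a genotype are described as biologically independent in the study's legends. For the BMM libraries no source used here says that they came from separate mice or cultures, so p-values there measure the spread between these samples, which may be technical.

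Phosphorylation of the translation factor eIF2 by kinases that sense amino acid shortage, unfolded protein in the endoplasmic reticulum, haem or viral RNA lowers most protein synthesis while ATF4 is translated more. ATF4 then raises transcription of genes for amino acid uptake and synthesis, tRNA charging and serine and glycine production, and, when stress lasts, of CHOP (Ddit3) and TRIB3. ATF4 is regulated largely through translation, so its mRNA is not a measure of its protein. In the osteoclast lineage ATF4 is known as a factor that takes part in the response to M-CSF and RANKL.

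The libraries held between 37967542 and 61369441 counted reads, with a median of 48098798. Replicates 1 to 3 and replicates 4 to 6 were deposited under 2 forms of name, and these are called library sets 1 and 2, whose meaning is not stated. Mitochondrially encoded genes took 0.481% to 1.07% of counts in set 1 and 2.36% to 5.26% in set 2. The summed level of 12 osteoclast markers was 507 to 697 CPM (a gene's counts scaled to equal library totals) in BMMs and 6497 to 18397 CPM in preOCs, and all 10 macrophage markers were detected. Lyz2, which the Cre allele interrupts, was at 0.146% to 0.436% of the Bap1flox mean in 6 of the 8 Bap1LysM libraries, and at 42.8% in Bap1LysM BMM 1 and 75.1% in Bap1LysM preOC 1. With 1 copy of the Cre allele an intact Lyz2 allele remains, so the near absence of Lyz2 in those 6 libraries goes against the stated genotype, and the other 2 differ from them. Which libraries carry the stated genotype cannot be told from the counts. The labels were kept, and values of members and calls of lists by genotype are also given without Bap1LysM BMM 1 or preOC 1 where they are described. Bap1 counts were 89.8% to 92.6% of the Bap1flox mean in Bap1LysM BMMs and 64.3% to 101% in Bap1LysM preOCs, and gene counts do not separate the deleted exons from the rest. The 8 stromal markers, genes of fibroblast-like marrow cells, summed to 1419 to 2457 CPM in Bap1flox preOCs 1 to 3 and to 224 to 398 CPM in Bap1flox preOCs 4 to 6.

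Among the members, levels can be compared only per length, as RPKM, which is CPM divided by gene length. Atf4 stood highest in all 4 groups, at 66.9 ± 9.50 RPKM in Bap1flox BMMs (SD, n = 3), 71.2 ± 6.53 in Bap1LysM BMMs (SD, n = 3), 113 ± 15.8 in Bap1flox preOCs (SD, n = 6) and 96.7 ± 16.7 in Bap1LysM preOCs (SD, n = 5). In Bap1flox BMMs Sesn2 at 24.2 RPKM and Shmt2 at 21.8 RPKM followed and overlapped each other, and Chac1 at 0.969 RPKM was lowest. In Bap1flox preOCs Shmt2 stood apart in the next place at 60.3 RPKM. Psat1 at 14.8 RPKM and Asns at 14.6 RPKM came after it and did not differ beyond their spread, and Chac1 at 1.76 RPKM and Trib3 at 1.47 RPKM were lowest. In Bap1LysM preOCs the order after Atf4 and Shmt2 was Asns at 16.5 RPKM, Sesn2 at 10.9, Ddit3 at 10.7 and Psat1 at 9.44, and each overlapped the next.

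The promoters are shown because the members share a regulator. The motif TGATGNAA, the form of site that CHOP and ATF4 dimers with C/EBP factors are known to bind, was searched on both strands in RefSeq promoter windows of GRCm38.p6, from 250 bases before to 50 after each start. It was found in 1304 of 32851 windows (3.97%) and in those of 3 of the 10 members, Chac1, Trib3 and Asns. A match is a description and not a binding site, and its lack says only that these letters are not in the window. The stretch of the Chac1 window before the first exon of the Ensembl model, at chr2:119350992-119351228 on the plus strand, is printed with the match on the opposite strand in capitals.
Chac1: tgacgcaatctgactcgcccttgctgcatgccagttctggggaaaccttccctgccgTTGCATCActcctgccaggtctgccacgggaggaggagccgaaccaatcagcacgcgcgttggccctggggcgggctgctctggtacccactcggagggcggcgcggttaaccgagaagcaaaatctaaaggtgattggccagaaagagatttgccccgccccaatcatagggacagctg
The matches in Trib3, on the opposite strand, and in Asns, both genes of the minus strand, are printed with 11 bases on either side, as windows at chr2:152344028-152344057 and chr6:7693214-7693243. The Asns match begins at position -23 from the RefSeq start and lies in an exon of the Ensembl model used for counting, and the Trib3 match begins at position 15 and lies outside the exons of that model.
Trib3: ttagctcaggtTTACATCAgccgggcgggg
Asns: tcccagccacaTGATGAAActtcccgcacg
Psat1, the member whose level differed between the genotypes in preOCs, had no match in either of its 2 RefSeq windows, and the 250 bases before the more upstream start at chr19:15925060-15925309 on the minus strand are printed for comparison.
Psat1: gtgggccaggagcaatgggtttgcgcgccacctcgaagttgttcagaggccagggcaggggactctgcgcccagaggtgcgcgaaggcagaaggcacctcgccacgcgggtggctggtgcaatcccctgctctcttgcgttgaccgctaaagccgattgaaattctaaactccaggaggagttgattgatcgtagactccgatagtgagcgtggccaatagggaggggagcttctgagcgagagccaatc

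The comparison of Bap1LysM with Bap1flox preOCs asks how loss of BAP1 in myeloid cells changes the early osteoclast transcriptome. Psat1 was lower in Bap1LysM preOCs, and it was the 1 member of 10 called by edgeR's quasi-likelihood test at a Benjamini-Hochberg adjusted p under 0.05. Over all 12919 genes tested, 15.8% were called, 7.12% as higher and 8.67% as lower, so 1 member in 10 is near that background. No member's groups were free of overlap, against 10.3% of all genes. The median log2 fold change of the members was 0.13, with 6 of 10 above 0, and that of all genes was -0.0071. With all preOCs pooled and neither library set nor replicate number in the fit, no member was called higher by edgeR or by DESeq2 (11.7% of all genes). At an unadjusted p under 0.05 Psat1 alone passed, against 30.4% of genes. Limma's voomWithQualityWeights called 1 member higher and 3 lower, against 26.8% and 28.1% of genes. Other edgeR fits called more members higher. With the replicate number blocked, Trib3, Chac1 and Sesn2 passed, 3 of 10 against 16.1% of genes, and the same 3 did when library set was a term of the fit, against 16.6%. In preOCs 4 to 6 alone 2 passed, against 15.3%. With the set as a term and Bap1LysM preOC 1 left out 4 passed, against 18.5%.

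**Figure D1:**
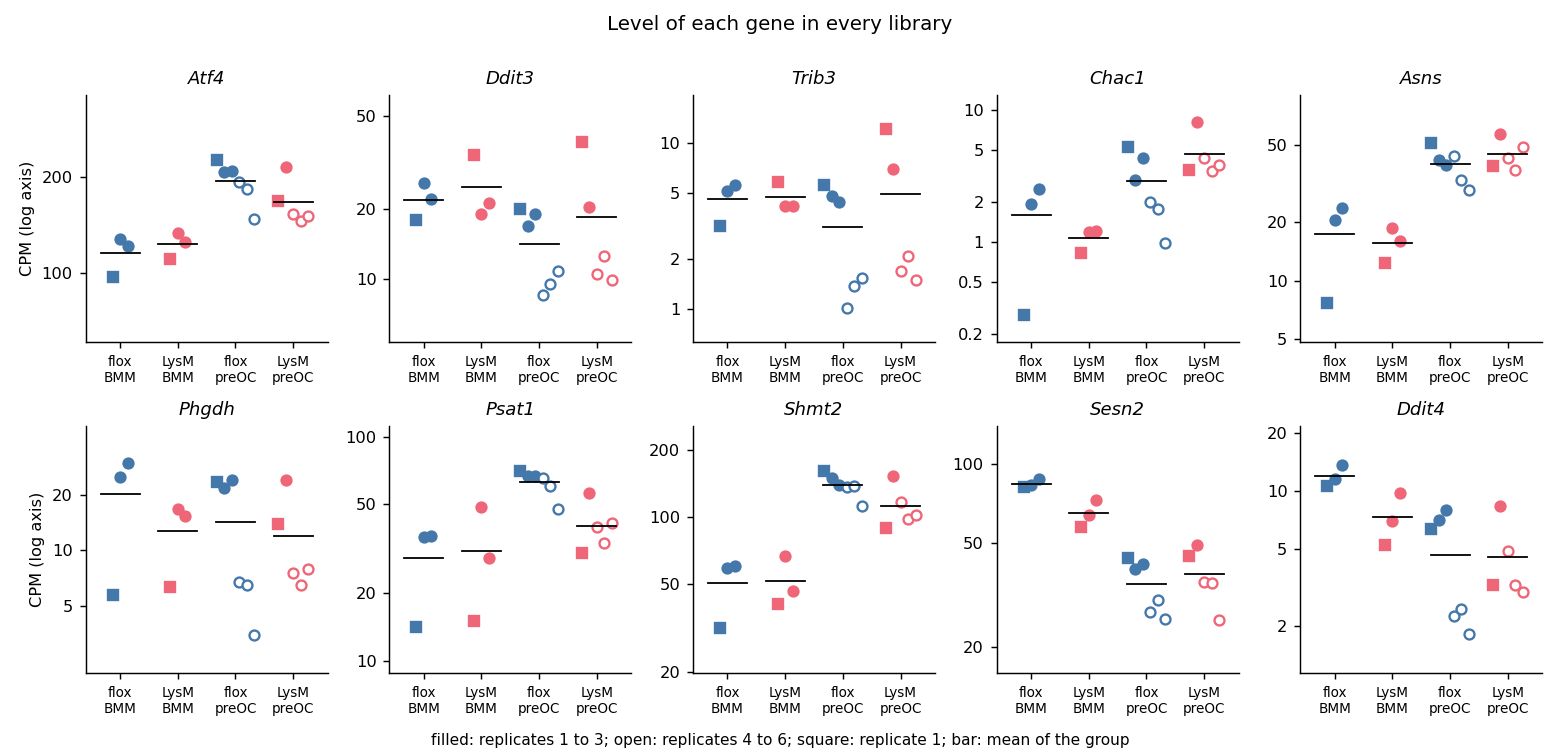
The level of each member in every library is plotted in CPM on a log axis, with filled points for replicates 1 to 3, open points for replicates 4 to 6, squares for replicate 1 and bars for group means. Psat1 lies at 47.8 to 70.3 CPM in Bap1flox preOCs and 30.2 to 56.0 in Bap1LysM preOCs, and among the preOCs of each genotype the open points of Trib3 and Phgdh lie below the filled ones.

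Psat1 (chr19:15904678-15947337, minus strand) encodes phosphoserine aminotransferase, the middle step of the pathway from 3-phosphoglycerate to serine. Its level was 70.3, 66.7 and 67.2 CPM in Bap1flox preOCs 1 to 3 and 65.3, 60.4 and 47.8 CPM in Bap1flox preOCs 4 to 6. In Bap1LysM preOCs it was 30.2 and 56.0 CPM in replicates 1 and 2 and 39.8, 33.6 and 41.2 CPM in replicates 4 to 6. Only Bap1LysM preOC 2 reached into the Bap1flox range, above Bap1flox preOC 6 alone. The means were 62.9 ± 8.10 CPM (SD, n = 6) and 40.1 ± 9.95 CPM (SD, n = 5). The log2 fold change was -0.58 (SE 0.13, nominal 95% interval -0.83 to -0.32), a fold of 0.671 with an adjusted p of 0.0134 by edgeR. The call held in 11 of 11 fits with a library left out, with log2 fold changes of -0.69 to -0.50 and adjusted p of 0.00288 to 0.0454, among them -0.50 (adjusted p = 0.0152) without Bap1LysM preOC 1. Within library set 1 the difference was -0.59 (adjusted p = 0.265, 3 against 2 libraries, where no gene of 13605 was called and 2369 had an unadjusted p under 0.05). Within set 2 it was -0.55 (adjusted p = 0.00889, 3 against 3 libraries). With the set as a term it was -0.56 (adjusted p = 0.00548).

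The members at the neighbouring steps, Phgdh and Shmt2, did not pass the test. Phgdh (chr3:98313170-98339990, minus strand), which encodes the enzyme that starts serine synthesis, was at 23.3, 21.8 and 24.0 CPM in Bap1flox preOCs 1 to 3 and at 6.72, 6.50 and 3.48 CPM in replicates 4 to 6. Bap1LysM preOCs had 13.9 and 24.1 CPM in replicates 1 and 2 and at 7.56, 6.54 and 7.95 CPM in replicates 4 to 6. The levels followed the library set far more than the genotype, for which the log2 fold change was -0.17 (SE 0.51, adjusted p = 0.847), and it turned to 0.16 with the set as a term (adjusted p = 0.555). Shmt2 (chr10:127517123-127522444, minus strand), the mitochondrial enzyme that splits serine into glycine and a folate-bound carbon unit, ranged from 111 to 161 CPM with a median of 138 in Bap1flox preOCs. In Bap1LysM preOCs it was 88.9, 153, 116, 97.5 and 102 CPM in replicates 1, 2, 4, 5 and 6. All but replicates 2 and 4 lay below every Bap1flox library, and the log2 fold change was -0.24 (SE 0.12, adjusted p = 0.184). Without Bap1LysM preOC 2 it was -0.35 and passed (adjusted p = 0.0275). Asns (chr6:7675169-7693254, minus strand), which makes asparagine from aspartate, had a log2 fold change of 0.25 (SE 0.13, adjusted p = 0.226), and of 0.35 with the set as a term and Bap1LysM preOC 1 left out, where it passed (adjusted p = 0.0351). Without that library alone the log2 fold changes were 0.29 for Asns (adjusted p = 0.163) and -0.18 for Shmt2 (adjusted p = 0.27).

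Atf4 (chr15:80255184-80257540, plus strand) itself was at 148, 201 and 227 CPM (lowest, median and highest) in Bap1flox preOCs. In Bap1LysM preOCs it was 168, 216, 153, 146 and 151 CPM in replicates 1, 2, 4, 5 and 6. The groups overlapped. The log2 fold change was -0.15 (SE 0.11, nominal 95% interval -0.36 to 0.06, adjusted p = 0.39 by edgeR's quasi-likelihood test), and -0.16 without Bap1LysM preOC 1 (adjusted p = 0.339). With quality weights in limma's voom fit it was -0.26 and passed (adjusted p = 0.00906), as did Shmt2 at -0.28 (adjusted p = 0.0112).

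The stress genes Ddit3, Trib3 and Chac1, like Phgdh, varied more within the genotypes than Atf4, Psat1, Shmt2 and Asns did. Ddit3 (chr10:127290774-127296288, plus strand), the transcription factor CHOP, was at 19.9, 16.9 and 19.0 CPM in Bap1flox preOCs 1 to 3 and 8.52, 9.49 and 10.8 CPM in replicates 4 to 6. Bap1LysM preOCs 1 and 2 were at 38.7 and 20.4 CPM, and replicates 4 to 6 at 10.5, 12.5 and 9.91 CPM. Bap1LysM preOC 1, the library with Lyz2 at 75.1%, was the highest of all, and the log2 fold change was 0.48 (SE 0.37, adjusted p = 0.412 by edgeR's quasi-likelihood test) and -0.02 without that library. Its osteoclast markers summed to 6497 CPM, against 18397 CPM in Bap1LysM preOC 2 and 13297 to 13894 CPM in replicates 4 to 6. Bap1flox preOC 1 was likewise lowest of its genotype, at 7692 CPM against 10715 to 14974 CPM. The part of this lower marker level in the member values was not tested. Exons of Ddit3 share 68 of 1713 bases with Mars on the opposite strand, a gene at up to 111 CPM, and strand use in counting is not given in the sources used here.

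Trib3 (chr2:152337422-152344032, minus strand), a pseudokinase that feeds back on ATF4, was at 5.59, 4.81 and 4.39 CPM in Bap1flox preOCs 1 to 3 and 1.00, 1.37 and 1.53 CPM in replicates 4 to 6. The Bap1LysM preOCs were at 12.2 and 7.01 CPM in replicates 1 and 2, and at 1.69, 2.07 and 1.48 CPM in replicates 4 to 6. Within set 1 both Bap1LysM libraries lay above all 3 Bap1flox libraries, and in set 2 the groups overlapped. The pooled log2 fold change was 0.75 (SE 0.63, adjusted p = 0.45), and 0.03 without Bap1LysM preOC 1. It was 0.78 with the set as a term (adjusted p = 0.0144) and 0.69 when replicate numbers were blocked (the replicate block, adjusted p = 0.0319). With the set as a term and Bap1LysM preOC 1 left out it was 0.51 (adjusted p = 0.0326).

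Chac1 (chr2:119351229-119354381, plus strand) encodes an enzyme that breaks down glutathione. It was at 5.26, 2.95 and 4.37 CPM in Bap1flox preOCs 1 to 3 and 2.02, 1.76 and 0.977 CPM in replicates 4 to 6. In Bap1LysM preOCs it was at 3.49 and 8.16 CPM in replicates 1 and 2 and at 4.30, 3.43 and 3.85 CPM in replicates 4 to 6. In set 2 every Bap1LysM library lay above every Bap1flox library, while in set 1 the groups overlapped. The pooled log2 fold change was 0.76 (SE 0.38, adjusted p = 0.197), and 0.84 without Bap1LysM preOC 1 (adjusted p = 0.159). It passed with the set as a term, at 0.98 (adjusted p = 0.0166), with the replicate block, at 1.04 (adjusted p = 0.0439), and within set 2 alone, at 1.33 (adjusted p = 0.00482). Whether the difference varied between the sets was tested as an interaction and did not pass (adjusted p = 0.65).

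Sesn2 and Ddit4 encode inhibitors of the growth kinase mTORC1, the former as a leucine sensor. Sesn2 (chr4:132492032-132510501, minus strand) ranged from 25.7 to 43.8 CPM with a median of 35.0 in Bap1flox preOCs, and was 44.6, 49.2, 35.4, 35.1 and 25.5 CPM in Bap1LysM preOCs 1, 2, 4, 5 and 6. Within set 1 both Bap1LysM libraries lay above all Bap1flox libraries. The pooled log2 fold change was 0.21 (SE 0.17, adjusted p = 0.442). It was 0.26 with the set as a term (adjusted p = 0.0417) and 0.26 with the replicate block (adjusted p = 0.0442). With the set as a term and Bap1LysM preOC 1 left out it was 0.27 and did not pass (adjusted p = 0.0518). Ddit4 (chr10:59949675-59951770, minus strand) was at 6.35, 7.12 and 7.98 CPM in Bap1flox preOCs 1 to 3 and 2.25, 2.47 and 1.83 CPM in replicates 4 to 6. The Bap1LysM levels were 3.28, 8.35, 4.92, 3.27 and 3.02 CPM in replicates 1, 2, 4, 5 and 6. All set 2 Bap1LysM libraries lay above the set 2 Bap1flox libraries, and the log2 fold change there was 0.83 (adjusted p = 0.0233), while over all preOCs it was 0.05 (SE 0.41, adjusted p = 0.95). Without Bap1LysM preOC 1 the pooled log2 fold changes were 0.13 for Sesn2, 0.14 for Ddit4 and -0.25 for Phgdh, with adjusted p of 0.608, 0.842 and 0.766.

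**Figure D2:**
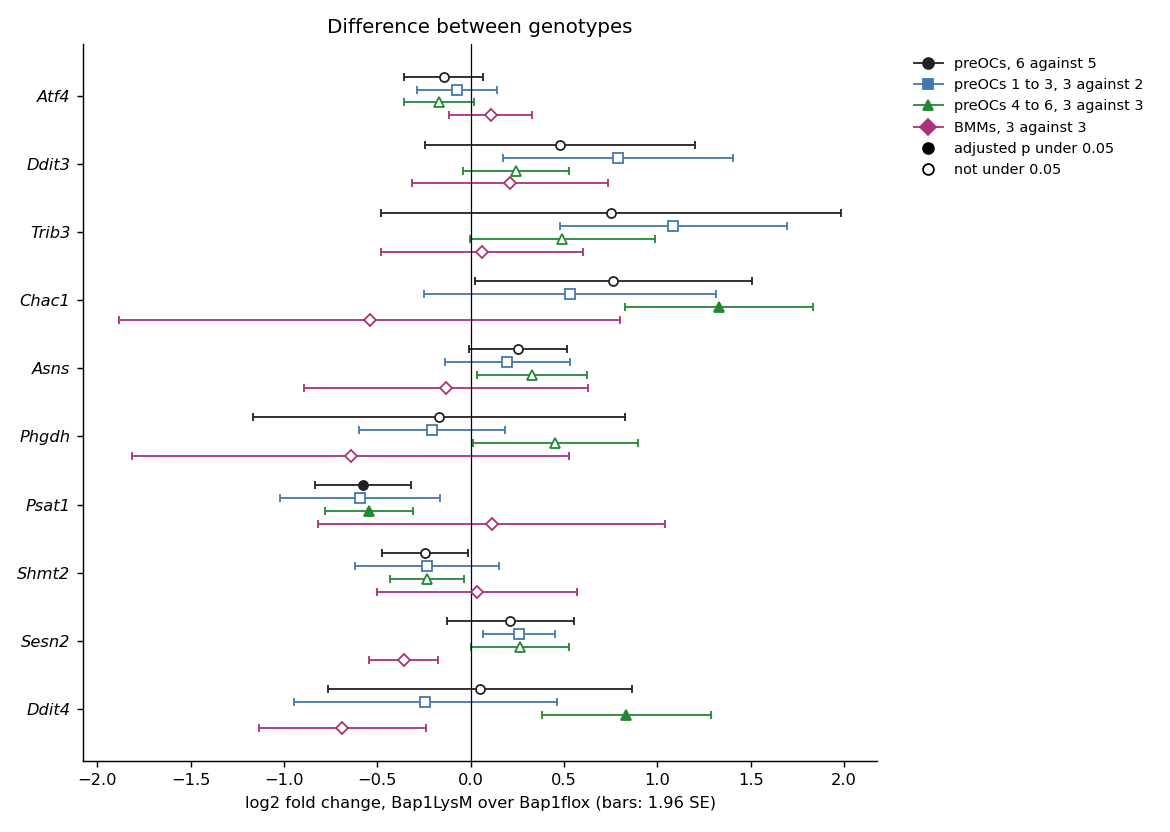
The log2 fold change of each member, Bap1LysM over Bap1flox, is plotted with 95% intervals for all preOCs, preOCs 1 to 3 alone, preOCs 4 to 6 alone and BMMs, and filled points passed an adjusted p of 0.05. Psat1 lies below 0 at -0.58 in all preOCs, and Chac1 in preOCs 4 to 6 lies at 1.33.

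Markers of other cells moved with the genotype in preOCs. Of the 9 neutrophil markers tested, 6 were higher in Bap1LysM preOCs, against 7.12% of all genes. Mmp8 lay the other way, at a log2 fold change of -1.07 (adjusted p = 0.109 by edgeR). The summed level of the list was 187 to 611 CPM in Bap1LysM preOCs against 99.7 to 249 CPM in Bap1flox preOCs. The sums apart from the Bap1flox range were those of set 2, at 611, 452 and 610 CPM in Bap1LysM preOCs 4 to 6, while Bap1LysM preOCs 1 and 2 were at 187 and 198 CPM. Chac1 and Ddit4 separated by genotype in the same set. Ly6g, a defining marker of neutrophils, was at 0 in Bap1flox preOCs 1, 4 and 6. Of 8 plasma cell markers tested, 5 immunoglobulin genes were higher, although the sum over the list overlapped, at 286 to 590 CPM against 358 to 496 CPM. The rest did not pass, with Irf4 at 0.93 and, below 0, Sdc1 at -0.38 and Prdm1 at -0.15. Stromal markers summed to 446 and 1535 CPM in Bap1LysM preOCs 1 and 2, and to 120 to 515 CPM in replicates 4 to 6, and none of 7 passed the test by genotype. In bulk RNA, fewer cells of a type and less RNA per cell cannot be told apart. Mitochondrially encoded genes took 1.02% and 1.07% of counts in Bap1LysM preOCs 1 and 2. Bap1flox preOCs 1 to 3 were at 0.667%, 0.481% and 1.02%. In set 2 the shares were 3.38%, 3.71% and 5.26% in Bap1LysM preOCs 4 to 6 and 2.84%, 2.36% and 3.64% in Bap1flox preOCs 4 to 6, which overlapped. The part of these cells and of RNA quality in the member differences was not tested.

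In BMMs the same comparison was made before RANKL. None of the 10 members was called by edgeR's quasi-likelihood test, where 5.32% of 13028 genes were, 1.31% as higher and 4.01% as lower. Those 693 calls fell to 7 without Bap1flox BMM 2, to 4 without Bap1flox BMM 3 and to 84 without Bap1LysM BMM 2. At an unadjusted p under 0.05, 2 members passed, Sesn2 and Ddit4, both lower in Bap1LysM BMMs, against 26.2% of all genes in either direction. The same pair did not overlap between the genotypes, against 32.6% of all genes, so neither count exceeds the background. The pair was also called lower by DESeq2 (9.1% of genes), by limma's voomWithQualityWeights (8.07%) and with the replicate block (10.7%), fits that called more genes overall.

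Sesn2 was at 81.8, 82.7 and 87.3 CPM in Bap1flox BMMs and 57.3, 64.0 and 72.9 CPM in Bap1LysM BMMs. Its log2 fold change was -0.36 (SE 0.09, adjusted p = 0.0736 by edgeR), and with the replicate block -0.36 (adjusted p = 0.0319). Ddit4 was at 10.6, 11.6 and 13.6 CPM in Bap1flox BMMs and 5.26, 6.98 and 9.78 CPM in Bap1LysM BMMs. Its log2 fold change was -0.69 (SE 0.23, adjusted p = 0.12), and with the replicate block -0.72 (adjusted p = 0.0271). Without Bap1LysM BMM 3, the highest of its group for both, they were at -0.45 (adjusted p = 0.0389) and -0.95 (adjusted p = 0.0459). Sesn2 and Ddit4 lay lower in every Bap1LysM BMM library than in all Bap1flox BMMs. Such a lack of overlap, in either direction, was found for 32.6% of all genes. Both were also lower in Bap1LysM BMM 1, in which Lyz2 was at 42.8%, and without that library the log2 fold changes were -0.31 and -0.52.

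Atf4 was at 96.8, 128 and 121 CPM in Bap1flox BMMs and 111, 133 and 125 CPM in Bap1LysM BMMs, which overlapped. Psat1 was at 14.1, 35.7 and 36.1 CPM in Bap1flox BMMs and 15.1, 48.9 and 28.9 CPM in Bap1LysM BMMs. Both libraries numbered 1 were the lowest of their group, and the log2 fold change was 0.11 (SE 0.47, adjusted p = 0.896). Phgdh showed the same split, at 5.78, 24.9 and 29.5 CPM in Bap1flox BMMs and 6.33, 16.7 and 15.3 CPM in Bap1LysM BMMs. Its log2 fold change was -0.64 (SE 0.60, adjusted p = 0.515), and -0.77 without the libraries numbered 1 (adjusted p = 0.0243). Asns was at 7.71, 20.5 and 23.9 CPM against 12.4, 18.7 and 16.0 CPM, Shmt2 at 31.6, 59.0 and 60.2 CPM against 40.3, 66.7 and 46.3 CPM, and Chac1 at 0.277, 1.95 and 2.54 CPM against 0.828, 1.19 and 1.20 CPM. Replicate 1 was the lowest library of its genotype for each of these 3 genes too, and for Atf4, Sesn2 and Ddit4, which makes 8 of the 10 members. Only 15 reads of Chac1 were counted in Bap1flox BMM 1, so its level there is imprecise.

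Stromal markers were lower in the same libraries. They summed to 580 CPM in Bap1flox BMM 1 against 2757 and 3135 CPM in Bap1flox BMMs 2 and 3, and to 418 CPM in Bap1LysM BMM 1 against 1155 and 1449 CPM in replicates 2 and 3. Lum, 1 of the 8 stromal markers, was at 0 in all BMM libraries. The part of stromal cells in the levels of these 8 members was not tested. Ddit3, at 17.8, 25.8 and 22.0 CPM against 34.1, 19.0 and 21.2 CPM, and Trib3, at 3.14, 5.11 and 5.56 CPM against 5.82, 4.17 and 4.15 CPM, did not have this split, and for both the highest Bap1LysM library was replicate 1.

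The response to RANKL was measured as preOCs 1 to 3 over BMMs 1 to 3 of the same genotype. These comparisons share the BMM libraries with the genotype comparison in BMMs and the preOCs with that in preOCs. In Bap1flox cells 4 members rose and 3 fell by edgeR's quasi-likelihood test. That is 7 of 10, where 64.6% of 13412 genes were called, 31.7% as higher and 32.9% as lower. The groups of 7 members did not overlap, against 72.3% of all genes, so both shares are near the background.

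The members that rose in Bap1flox cells were Atf4 and 3 biosynthetic genes. Shmt2 went from 31.6, 59.0 and 60.2 CPM to 161, 149 and 138 CPM, a log2 fold change of 1.38 (SE 0.24, adjusted p = 0.00175). Asns went from 7.71, 20.5 and 23.9 CPM to 51.2, 42.1 and 39.7 CPM, a log2 fold change of 1.16 (SE 0.38, adjusted p = 0.0294). Psat1 had a log2 fold change of 1.06 (SE 0.32, adjusted p = 0.0237) and Atf4 one of 0.70 (SE 0.11, adjusted p = 0.00117). For all 4, every preOC library lay above every BMM library. The calls of Atf4 and Shmt2 held in 6 of 6 fits with a library left out. Those of Asns and Psat1 held in 3 of 6 and were lost without preOC 1, 2 or 3, at adjusted p of up to 0.0909 and 0.0664. Phgdh had a log2 fold change of 0.01 (SE 0.51, adjusted p = 0.985), and without Bap1flox BMM 1, its lowest library, -0.38 (adjusted p = 0.0121). Chac1 was higher in every preOC library but did not pass, at 1.22 (SE 0.66, adjusted p = 0.145).

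The members that fell in Bap1flox cells were both mTORC1 inhibitors and Ddit3. Sesn2 went from 81.8, 82.7 and 87.3 CPM to 43.8, 39.8 and 41.6 CPM, a log2 fold change of -1.20 (SE 0.07, adjusted p = 1.74e-05 by edgeR's quasi-likelihood test). Ddit4 went from 10.6, 11.6 and 13.6 CPM to 6.35, 7.12 and 7.98 CPM, a log2 fold change of -0.93 (SE 0.14, adjusted p = 0.000922). Neither overlapped. Ddit3 had a log2 fold change of -0.42 (SE 0.15, adjusted p = 0.0382) with overlapping libraries. With the replicate block it was -0.41 (adjusted p = 0.0778), and its call was kept in 2 of 6 fits with a library left out. Without Bap1flox BMM 2 it was -0.26 (adjusted p = 0.131), and the call was also lost without Bap1flox BMM 3 and without Bap1flox preOC 2 or 3. Trib3 had a log2 fold change of -0.09 (adjusted p = 0.757).

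In Bap1LysM cells, with 3 BMM and 2 preOC libraries, 5 members were called by edgeR, where 18.4% of 13627 genes were. Higher were 4 members, against 10.8% of all genes, and lower was 1, against 7.6%. The groups of 6 members did not overlap, against 55.1% of all genes. Chac1 went from 0.828, 1.19 and 1.20 CPM to 3.49 and 8.16 CPM, a log2 fold change of 2.30 (SE 0.39, adjusted p = 0.019). Asns went from 12.4, 18.7 and 16.0 CPM to 39.3 and 56.9 CPM, a log2 fold change of 1.50 (SE 0.20, adjusted p = 0.0121). Shmt2 had a log2 fold change of 1.13 (SE 0.26, adjusted p = 0.036) and Atf4 one of 0.53 (SE 0.13, adjusted p = 0.0434). Sesn2 went from 57.3, 64.0 and 72.9 CPM to 44.6 and 49.2 CPM, a log2 fold change of -0.57 (SE 0.14, adjusted p = 0.0403). With the replicate block Sesn2, at -0.48 (adjusted p = 0.0644), and Atf4 (adjusted p = 0.0562) did not pass.

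Calls in Bap1LysM cells rested on few libraries. Over all genes, 2503 calls fell to 71 without Bap1LysM BMM 2, to 147 without Bap1LysM BMM 3 and to 776 without Bap1LysM preOC 2. The call of Asns was kept in 3 of 5 fits with a library left out, those of Chac1, Shmt2 and Atf4 in 1 of 5 and that of Sesn2 in 0 of 5, with adjusted p of up to 0.124 for Sesn2, 0.0816 for Chac1, 0.149 for Shmt2 and 0.157 for Atf4. The calls of Chac1, Shmt2 and Atf4 were kept only without Bap1LysM preOC 1, and without Bap1LysM BMM 2 or 3 no member was called as higher. Leaving out a preOC library leaves 1, which is then assumed to vary like the BMM libraries. Psat1 was at 15.1, 48.9 and 28.9 CPM in Bap1LysM BMMs and 30.2 and 56.0 CPM in preOCs, which overlapped, with a log2 fold change of 0.37 (SE 0.46, adjusted p = 0.599). Trib3 was higher in both preOC libraries than in all BMM libraries, at 0.94 (SE 0.35, adjusted p = 0.111).

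**Figure D3:**
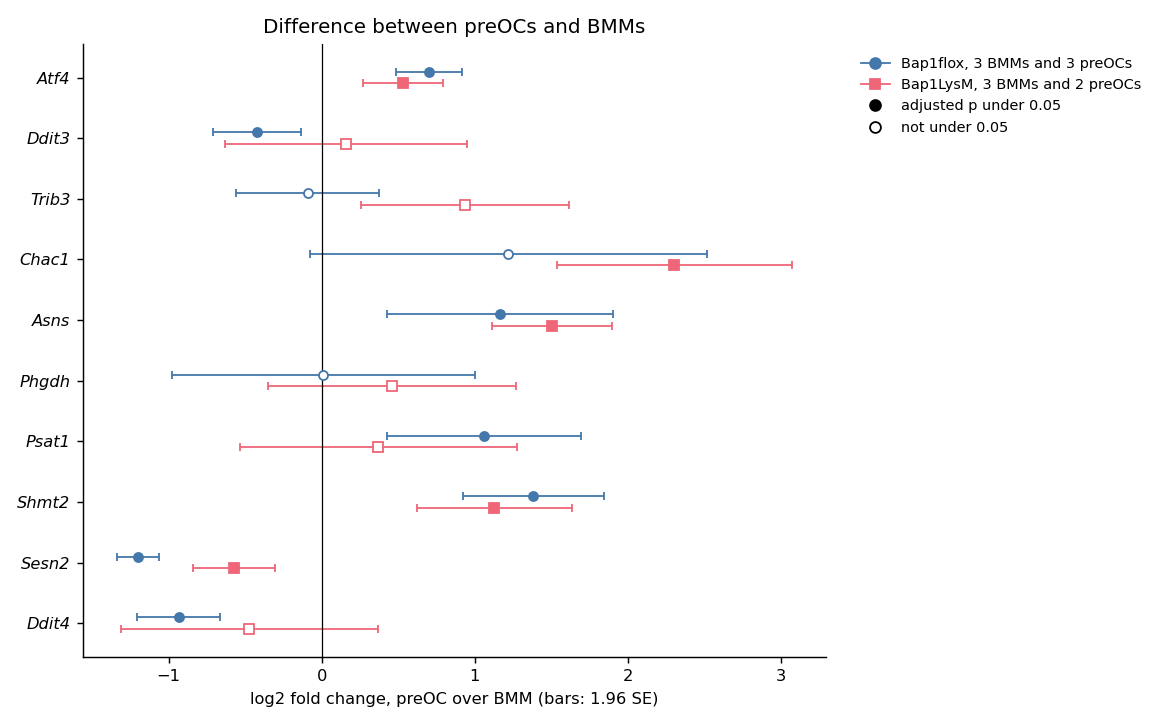
The log2 fold change of each member, preOC over BMM in replicates 1 to 3, is plotted with 95% intervals for Bap1flox and Bap1LysM cells, and filled points passed an adjusted p of 0.05. Sesn2 lies below 0 in both genotypes, at -1.20 and -0.57, and Shmt2 and Asns lie above 0 in both.

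Whether the response to RANKL differed between the genotypes was tested as an interaction. No member was called by edgeR, and no gene of 14102 was (0%), while 12.4% of genes and 2 members had an unadjusted p under 0.05. The interaction of Sesn2, whose level went down in both genotypes, was 0.62 on the log2 scale (SE 0.13, adjusted p = 0.334), and it ranked 26th by p of all genes. DESeq2 called it (adjusted p = 0.0269, with 0.44% of genes called higher), and over the fits with a library left out its adjusted p ran from 0.0953 to 0.642. Trib3 had an interaction of 1.02 (SE 0.43, adjusted p = 0.387). For Psat1 it was -0.70 (SE 0.62, adjusted p = 0.669), so the call in Bap1flox cells and the lack of it in Bap1LysM cells do not show a difference.

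The library sets of the preOCs separated the members more than the genotype did. With genotype in the fit, 7 members were lower in set 2 than in set 1 and none was higher by edgeR's quasi-likelihood test, where 53.5% of genes were called, 25.5% as higher and 28.1% as lower. Of the 10 members, 4 did not overlap between the sets, against 24.1% of all genes. Trib3 was lower by a log2 fold change of -2.11 (SE 0.21, adjusted p = 3.81e-05), Phgdh by -1.67 (SE 0.19, adjusted p = 6.73e-05), Ddit4 by -1.15 (SE 0.27, adjusted p = 0.00404) and Ddit3 by -1.11 (SE 0.18, adjusted p = 0.000494). Chac1 at -0.95, Sesn2 at -0.50 and Atf4 at -0.25 were lower too, with adjusted p of 0.0112, 0.000837 and 0.0113. All 7 calls held in 11 of 11 fits with a library left out. The genes that did not pass were Asns at -0.17, Psat1 at -0.13 and Shmt2 at -0.14, and without Bap1LysM preOC 1 the latter pair passed, at -0.25 (adjusted p = 0.0361) and -0.23 (adjusted p = 0.0329). Since replicates 1 to 3 and 4 to 6 differ in more than 1 measure, the source of the difference cannot be told apart here.

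Stromal markers and mitochondrial counts moved with the library set. Of 7 stromal markers tested, 6 were lower in set 2 and Dcn was higher, against 28.1% lower and 25.5% higher of all genes. Phgdh lay at 13.9 to 24.1 CPM in set 1 preOCs and 3.48 to 7.95 CPM in set 2, and the stromal sum at 446 to 2457 CPM and 120 to 515 CPM. Bap1LysM preOC 1 and both BMM libraries numbered 1 had the lowest stromal sums of the set 1 libraries. Their Phgdh levels, at 13.9, 5.78 and 6.33 CPM, were the lowest of set 1. Trib3 did not follow this order, since its highest level, 12.2 CPM, was in Bap1LysM preOC 1. The part of stromal cells and of RNA quality in the difference between sets was not tested.

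**Figure D4:**
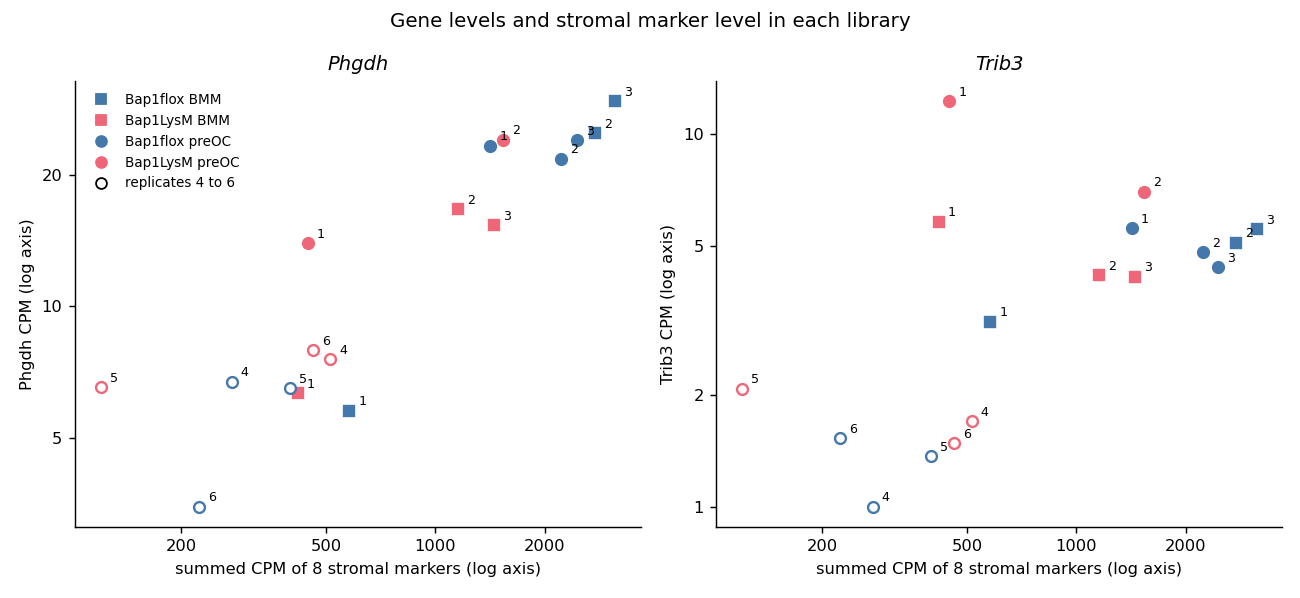
Phgdh and Trib3, in CPM on a log axis, are plotted against the summed CPM of 8 stromal markers, also on a log axis, for all 17 libraries by group and library set. Phgdh lies between 3.48 and 7.95 CPM in the set 2 preOCs, whose stromal sums are 515 CPM or less, and Trib3 is highest, at 12.2 CPM, in Bap1LysM preOC 1.

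Whether the genotype difference in preOCs varied with the set was also tested. None of the 10 members and none of the 12919 genes was called by edgeR (0%), with 1 member, Ddit4, and 9.17% of genes at an unadjusted p under 0.05. Ddit4 had an interaction of 1.08 (SE 0.44, adjusted p = 0.531). Without Bap1LysM preOC 2 the set 1 arm of that genotype is Bap1LysM preOC 1 alone, the library with Lyz2 at 75.1% and Ddit3 at 38.7 CPM, which is then assumed to vary like the other groups. There Ddit4 and Ddit3 passed at adjusted p of 0.0211 and 0.0317, with interactions of 1.81 and -0.96, in a fit that called 882 of 12746 genes.

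Other genes of the pathway were read from 7 lists. In preOCs by genotype, the 16 serine and folate carbon genes had 6 lower members and 1 higher, against 8.67% lower and 7.12% higher of all genes, with a median log2 fold change of -0.21 against -0.0071 over all genes. Gcsh, a subunit of the glycine cleavage system, was at 65.5 ± 8.51 CPM in Bap1flox preOCs (SD, n = 6) and fell to 34.4 ± 6.15 CPM in Bap1LysM preOCs (SD, n = 5), a log2 fold change of -0.85 (SE 0.11, adjusted p = 0.000941). Tyms, thymidylate synthase, which also serves DNA synthesis, was at -0.40 (adjusted p = 0.0126). Aldh1l1, which oxidises formyl-folate, was higher at 0.58 (SE 0.13, adjusted p = 0.0097). The last enzyme of serine synthesis, Psph, chosen after its values were seen, was at -0.21 (adjusted p = 0.37).

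Amino acid transporters had 2 higher of 8 tested and none lower, against 7.12% and 8.67% of all genes. Slc7a11, the cystine and glutamate exchanger, was at 18.0 ± 4.63 CPM in Bap1flox preOCs (SD, n = 6) and rose to 41.0 ± 4.04 CPM in Bap1LysM preOCs (SD, n = 5), a log2 fold change of 1.26 (SE 0.18, adjusted p = 0.00122 by edgeR's quasi-likelihood test), and its groups did not overlap. Slc6a9, a glycine transporter, was at 1.20 (SE 0.28, adjusted p = 0.0147). Among 15 other ATF4 targets 1 was higher and 2 were lower, near the same background. Vldlr, a lipoprotein receptor, was at 10.4 ± 1.73 CPM in Bap1flox preOCs (SD, n = 6) and higher in Bap1LysM preOCs at 47.2 ± 16.7 CPM (SD, n = 5), a log2 fold change of 2.26 (SE 0.24, adjusted p = 0.000389). Gpt2, an alanine aminotransferase of mitochondria, was at -0.63 (adjusted p = 0.00113) and Ndrg1 at -0.88 (adjusted p = 0.00461).

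The stress kinases and eIF2 factors had 2 lower of 16, against 8.67% of all genes, Eif2b2, a subunit of the exchange factor eIF2B, at -0.46 (adjusted p = 0.011) and Eif2ak4, the kinase GCN2 that senses uncharged tRNA, at -0.27 (adjusted p = 0.0347 by edgeR's quasi-likelihood test). None of 10 partner factors of ATF4 and none of 14 tRNA synthetases and export genes was called. Of 19 chaperones and factors of the XBP1 and ATF6 arms, Atf6 was higher at 0.50 (adjusted p = 0.0321), and Creld2 at -0.40 (adjusted p = 0.031) and Pdia4 at -0.45 (adjusted p = 0.0335) were lower, against 7.12% higher and 8.67% lower of all genes. Without Bap1LysM preOC 1 every list gene called in preOCs kept its direction and its call. Slc7a11 was at 1.19, Slc6a9 at 1.18, Vldlr at 2.43 and Gcsh at -0.91. Pdia4, which had the highest adjusted p of them, was at -0.37 (adjusted p = 0.0437). That fit called 1365 of 12870 genes higher and 1707 lower, and some lists gained calls. Partner factors then had 1 lower of 10, other ATF4 targets 3 higher and 2 lower of 15, and chaperones 2 higher and 2 lower of 19. Called genes of the lists thus lay on both sides, with transporters above and folate genes mostly below the Bap1flox level.

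In BMMs, of the pathway lists only the other ATF4 targets held calls by genotype. Of 15 tested, 1 was higher and 2 were lower, against 1.31% and 4.01% of all genes. Vldlr was higher at 1.47 (adjusted p = 0.0193), and Ndrg1 at -1.55 (adjusted p = 0.0171) and Pck2 were lower. Without Bap1LysM BMM 1 these 3 calls held, with Vldlr at 1.52 (adjusted p = 0.0366), Ndrg1 at -1.42 (adjusted p = 0.0332) and Pck2 at -0.78 (adjusted p = 0.0373). Without Bap1flox BMM 3, over all genes 0 were called higher and 4 lower, so the call of Vldlr was lost there. Without Bap1flox BMM 2 the counts were 1 and 6. With RANKL in Bap1flox cells, where 31.7% of all genes were higher and 32.9% lower, 13 of 14 tRNA synthetase and export genes rose and none fell, with a median log2 fold change of 0.79 against -0.05 over all genes. Of 17 serine and folate carbon genes 11 rose and 3 fell, of 16 eIF2 factors 10 rose and 1 fell, and of 8 transporters 5 rose and 1 fell. Partner factors went mostly the other way, with 5 of 10 lower, among them Atf5, Atf3 and Cebpb, and 2 higher. Other targets split into 6 higher and 7 lower of 16, and chaperones into 6 higher and 4 lower of 19. In Bap1LysM cells 10.8% of all genes were higher and 7.6% lower. There 9 of 14 synthetase genes, 5 of 18 serine and folate genes, 4 of 8 transporters and 4 of 16 eIF2 factors rose. None of these lists held a gene that fell. Other targets split into 3 higher and 3 lower of 16 and partner factors into 1 higher and 1 lower of 10, and none of 19 chaperones was called.

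**Figure D5:**
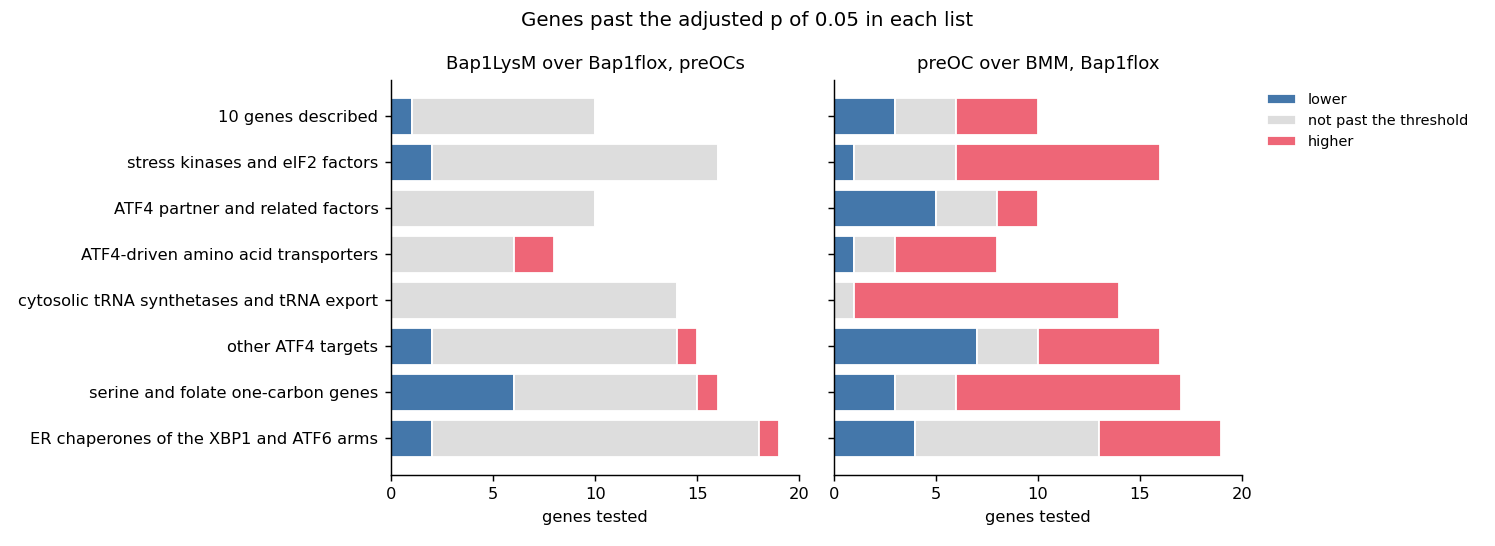
Stacked bars give, for each list, how many tested genes were higher, lower or not past an adjusted p of 0.05, in preOCs by genotype and in Bap1flox cells with RANKL. With RANKL 13 of 14 tRNA synthetase and export genes were higher, and by genotype 6 of 16 serine and folate carbon genes were lower.

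The members did not move as a single group over the libraries. Of 45 pairs of members, 15 had a Pearson correlation above 0.8 between deviations from the mean of their group within its library set and 12 had one below 0, with a median of 0.39 (17 libraries, described without a test). Differences between groups and between sets are thus removed, and the pairs still shared depth and the low stromal sum of the libraries numbered 1. Asns and Chac1 had 0.94, Psat1 and Shmt2 0.94 and Ddit3 and Trib3 0.86, while Ddit3 and Ddit4 had -0.67. With the libraries numbered 1 left out, 3 pairs were above 0.8 and 17 below 0, and Psat1 and Shmt2 were the closest pair at 0.92. Without those libraries Asns and Chac1 had 0.63, Ddit3 and Trib3 0.66 and Ddit3 and Ddit4 -0.15. The correlation with the mean of the 10 standardised members, in which groups and sets stayed, ran from 0.89 for Phgdh to 0.16 for Sesn2. Among the non-members of the 13376 genes kept for profiles, those most like that mean over the 17 libraries were Ltbp2 (Pearson r = 0.92), Speg (0.90), Epha2 (0.90), Gm16103 (0.90) and Gm12286 (0.89).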

How the data were processed

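The 17 libraries were poly-A selected and sequenced as read pairs. The authors aligned the reads with STAR 2.5.1a to the Ensembl release 76 mouse assembly (GRCm38) and counted uniquely aligned, unambiguous reads with featureCounts 1.4.6-p5. The deposited counts are raw whole numbers per gene, and they alone entered the tests. The deposited CPM equals each count over the library total, and the deposited RPKM equals CPM over gene length, and both served for levels. Symbols came from GENCODE M21, which gave 40254 of 41388 genes a symbol. Here, 355 ribosomal RNA genes, at most 0.3592% of counts, were left out.

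Groups were taken from sample titles. Comparisons used edgeR 4.0.16 in R 4.3.3 (TMM factors, quasi-likelihood test, Benjamini-Hochberg adjustment over all genes tested, threshold 0.05) on the groups compared. Genes were kept where CPM exceeded 1 in 4 or more of the 11 preOC libraries, 2 of the 6 BMM libraries, 2 Bap1flox libraries for RANKL, or 1 library for RANKL in Bap1LysM cells and the interaction. Alternatives were DESeq2 1.42.0, voomWithQualityWeights of limma 3.58.1, RLE and upper-quartile factors, no filter, the replicate number as a block, library sets as a term or alone, and each library left out. Intervals are nominal 95% intervals, the value plus or minus 1.96 SE, and log2 CPM for profiles used a prior count of 2. The intervals make no allowance for the few libraries, so one can exclude 0 where the test did not pass. In preOCs by genotype that of Shmt2 was -0.47 to -0.01, at an unadjusted p of 0.0601 by edgeR's quasi-likelihood test. The scripts were tested on simulated data. Tables and figures used python 3.11.15, pandas 2.3.3, numpy 2.4.6 and matplotlib 3.10.9. Promoter sequences are those of RefSeq for GRCm38.p6, and all 10 members matched.

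Named genes were all members, up to 4 genes per list with the smallest p among those called in preOCs by genotype, Slc7a11, and the 5 genes with the profile most like the members. A gene that this rule names is not reported here. Psph, Pck2, Atf5, Atf3, Cebpb and the marker genes fall outside it and were named after their values were seen. The members and lists were chosen with earlier results of these data known. Marker lists covered osteoclasts, macrophages, neutrophils, plasma cells, B cells, stromal and erythroid cells. In preOCs by genotype, 1 of 12 osteoclast markers was lower (Dcstamp) and 2 of 10 macrophage markers were higher (Mertk and Csf1r). Over all genes 8.67% were lower and 7.12% higher. None of 2 B cell markers tested was called, while no erythroid marker passed the filter. Without Bap1LysM preOC 1, osteoclast markers had 2 higher and 1 lower and macrophage markers 2 higher and 2 lower. In BMMs 3 of 10 plasma cell markers were higher (Jchain, Igha and Igkc), against 1.31% of all genes. Mrc1, Cd79b and Epor were lower there, against 4.01%. Without Bap1LysM BMM 1, 1 of the 3 held and the calls of Mrc1, Cd79b and Epor were lost.

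Whether numbers pair the libraries was checked from the correlation of same-numbered deviations from group means. It was 0.61, 0.72, 0.41, 0.67 and 0.49 in preOCs (numbers 1, 2, 4, 5 and 6), 0.54, 0.37 and 0.41 in BMMs and 0.38, 0.26 and 0.33 for RANKL in Bap1flox cells, all over 0.1. The main fits held no term for the number, and pairing entered only through the replicate block, an alternative. Within library set 2 of the preOCs it was 0.02, -0.13 and 0.06, so the preOC values follow the sets. With the replicate block, members higher in preOCs numbered 3, and members lower in BMMs numbered 2.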

Additional observations from a re-analysis of the deposited data

Results flagged for a closer look

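Of the 20 combinations of a member and a preOC group tested for a single library far from the others, 1 passed Dixon's criterion. Chac1 was at 8.16 CPM in Bap1LysM preOC 2, and the nearest other library of its group was at 4.30 CPM, a gap of 0.816 of the group's range against a critical value of 0.71. Chance gives such a result in about 1 in 20 groups, if the libraries of a group are alike. Here the group pools both library sets, and Chac1 was lower in set 2 (log2 fold change -0.95, adjusted p = 0.0112 by edgeR). Bap1LysM preOC 2 also held the highest Asns level of all 17 libraries, 56.9 CPM. Its stromal sum was 1535 CPM against 120 to 515 CPM in the other Bap1LysM preOCs.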

How the results depend on the processing

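Over the alternatives, 76 of 100 values of members by genotype in preOCs kept their direction and side of the threshold, 56 of 70 in BMMs, 56 of 60 for RANKL in Bap1flox cells, 53 of 60 in Bap1LysM cells and 57 of 60 for the interaction. The cause of each change below was not tested. All values are log2 fold changes unless named as counts. In preOCs by genotype, values that changed sign were Ddit4 with upper-quartile factors (-0.0104) and in replicates 1 to 3 alone (-0.24), Ddit3 (-0.0678) and Trib3 (-0.25) with voomWithQualityWeights, and Phgdh with the replicate block (0.21), with the library set as a term (0.16, or 0.33 with Bap1LysM preOC 1 left out) and in replicates 4 to 6 alone (0.45). Members called higher numbered 3 with the replicate block, 1 with voomWithQualityWeights, 3 with the set as a term, 2 in replicates 4 to 6 alone and 4 with the set as a term without Bap1LysM preOC 1. Members called lower numbered 3 with voomWithQualityWeights and 0 in replicates 1 to 3 alone. Over all genes, the 2040 calls became 4233 with the replicate block, 7093 with voomWithQualityWeights, 4345 with the set as a term, 4282 in replicates 4 to 6, 0 in replicates 1 to 3, 3072 without Bap1LysM preOC 1, 1067 or 1069 without Bap1LysM preOC 4 or 5 and 1329 without Bap1flox preOC 5, and upper-quartile factors split 2098 calls into 696 higher and 1402 lower against 920 and 1120. In BMMs, Shmt2 changed sign with upper-quartile factors (-0.0075), Trib3 (-0.20), Psat1 (-0.19) and Shmt2 (-0.16) with voomWithQualityWeights, and Ddit3 (-0.25), Trib3 (-0.36) and Shmt2 (-0.0871) without the libraries numbered 1. Members called lower numbered 2 with DESeq2, 2 with the replicate block, 2 with voomWithQualityWeights and 1 without the libraries numbered 1. Over all genes, 693 calls became 2065 with DESeq2, 2107 with the replicate block, 1772 with voomWithQualityWeights and 1359 without the libraries numbered 1. With 1 library left out they fell to 7 (without Bap1flox BMM 2), 4 (Bap1flox BMM 3), 84 (Bap1LysM BMM 2), 298 (Bap1flox BMM 1) and 369 (Bap1LysM BMM 1).

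With all Bap1flox preOCs in the RANKL comparison Phgdh was at -0.62, and with all Bap1LysM preOCs Ddit3 was at -0.50, Trib3 at -0.0188 and Phgdh at -0.16. In Bap1LysM cells, with 2 shared numbers (correlations 0.52 and 0.39), the replicate block left 0 members called lower and Sesn2 at -0.48 (adjusted p = 0.0644), and it changed no call of a member elsewhere beyond those given beside the results and Atf4 there (adjusted p = 0.0562). Upper-quartile factors and no filter also lost the call of Ddit3 in Bap1flox cells and that of Atf4 in Bap1LysM cells. In Bap1LysM cells DESeq2 called 4073 genes against 2503, and all preOCs gave 5113. Without Bap1LysM BMM 1, 2 or 3 it was 1092, 71 or 147 genes, and without Bap1LysM preOC 2 it was 776. For the interaction DESeq2 called 1 member higher and 111 genes, and without the libraries numbered 1 Atf4 was at 0.0435 and Shmt2 at 0.21.

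With each library left out in turn, ranges that crossed 0 were, in preOCs by genotype, Ddit3 -0.0161 to 0.63, Ddit4 -0.24 to 0.26 and Phgdh -0.54 to 0.0349, with 1 to 2 members lower. In BMMs they were Asns -0.48 to 0.17, Ddit3 -0.13 to 0.39, Psat1 -0.34 to 0.42, Shmt2 -0.21 to 0.18 and Trib3 -0.16 to 0.22, with 0 to 2 members lower. With RANKL in Bap1flox cells they were Phgdh -0.38 to 0.43 and Trib3 -0.26 to 0.10, with 2 to 4 members higher and 2 to 4 lower. In Bap1LysM cells they were Ddit3 -0.47 to 0.58, Ddit4 -1.22 to 0.0142 and Psat1 -0.0764 to 0.79, with 0 to 4 members higher and 0 lower. For the interaction they were Ddit3 -0.056 to 1.01, Ddit4 -0.27 to 0.94 and Shmt2 -0.62 to 0.0228. For genotype by library set they were Asns -0.0467 to 0.35, Atf4 -0.19 to 0.0348, Ddit3 -0.96 to 0.10, Psat1 -0.28 to 0.48, Sesn2 -0.0658 to 0.16 and Shmt2 -0.28 to 0.37, with 0 to 1 member higher and 0 to 1 lower. The fits with library sets, other than those without Bap1LysM preOC 1, were planned with the rest, and those of list genes, without the libraries numbered 1 or with all preOCs for RANKL were chosen after seeing the data. The lowest libraries held 15 reads of Chac1 and 59 of Trib3, where counting error limits the precision most.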
